A study of Mus musculus with 6 samples.

Results

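The T cell receptor complex and cytotoxic granule genes were followed here as 10 listed genes in cells sorted from the mouse retina. The list was applied by gene symbol, and all 10 symbols were found once each among the 55573 genes of the count table. Its 5 T cell members are Cd3d, Cd3e, Cd3g, Lck and Cd8a, and its 5 cytotoxic members are Gzma, Gzmb, Nkg7, Ccl5 and Prf1. Total RNA of retinal ganglion cells, the retina's output neurons, was sequenced after fluorescence-activated sorting, per the labels. All mice were C57BL/6 and carried floxed alleles of Myh9 and Myh10, which encode nonmuscle myosin II heavy chains. Their eyes had received AAV2, an adeno-associated viral vector injected into the vitreous, 2 weeks before tissue collection. The group labelled dKO (3 libraries) received AAV2-Cre and the group labelled WT (3 libraries) received AAV2-GFP, so that the floxed alleles and a virus were common to both groups. Each library pooled 3 retinas from 3 mice. The labels give neither the age of the animals nor the promoter that drives Cre.

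T cells recognise antigen through a receptor whose alpha and beta (or gamma and delta) chains bind the peptide, while the invariant CD3 chains carry the signal inward. The kinase Lck, held at the co-receptors CD4 and CD8, phosphorylates the CD3 chains. Cytotoxic lymphocytes, which include CD8 T cells and natural killer (NK) cells, kill by releasing granules that hold perforin, a pore-forming protein, and granzymes, the proteases that enter through the pores. The healthy retina holds few such cells.

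The libraries differed in usable depth. Counts outside one dominant ribosomal RNA row, CT010467.1, were 576060, 453327 and 1636581 in the libraries labelled dKO (replicates 1 to 3), against 499313, 346037 and 441118 in those labelled WT. Replicate 3 labelled dKO therefore stood apart, with 3.53 times the mean depth of the other 5 libraries. Levels are given as CPM, counts per 1000000 counts of a library size scaled by TMM, a correction for composition. No pair of libraries within a group was the same within counting noise (chi-square per degree of freedom 1.13 to 1.48 over protein-coding genes), and each was counted as 1 replicate. The labels do not say whether replicates share animals, so a p-value covers the spread of the libraries alone, part of which may be technical. The targeted genes were not detectably lower: Myh9 was at 63.2, 65.7 and 57.7 CPM in libraries labelled dKO and 63.1, 67.9 and 60.2 CPM in those labelled WT, and Myh10 at 19.0, 20.5 and 14.1 CPM against 19.7, 19.8 and 16.2 CPM. These counts cover the whole gene and do not check the floxed exons. Of the defining retinal ganglion cell markers, Pou4f2 had 0, 2 and 5 counts in libraries labelled dKO and none in any library labelled WT, Pou4f1 had 3, 1 and 9 counts against 1, 0 and 0, and Slc17a6 had 7, 4 and 21 counts against 2, 1 and 2. Rbpms, the other defining marker, had counts in every library, 9, 8 and 30 in those labelled dKO and 11, 5 and 6 in those labelled WT (1.86 ± 0.128 and 1.82 ± 0.486 CPM). The T cell markers Cd3d, Cd3e, Cd3g, Cd8a, Cd4, Trac, Trbc1 and Trbc2 had counts in all 6 libraries.

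The promoters of 3 cytotoxic members are shown because these genes encode perforin and granzymes of the granules. Of these, Gzma passed the test, Gzmb did not, and Prf1 had too few counts to be tested. Each run is the 250 bases before the RefSeq start in GRCm38.p6, 5′ to 3′ on the gene's strand, with matches to the searched motifs in capitals.
Gzma, chr13:113100982-113101231 (minus strand): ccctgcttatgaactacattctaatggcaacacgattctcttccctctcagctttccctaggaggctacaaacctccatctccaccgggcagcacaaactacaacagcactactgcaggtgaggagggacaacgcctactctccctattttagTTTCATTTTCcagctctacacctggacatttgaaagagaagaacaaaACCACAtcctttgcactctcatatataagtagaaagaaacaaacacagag
Gzmb, chr14:56262335-56262584 (minus strand): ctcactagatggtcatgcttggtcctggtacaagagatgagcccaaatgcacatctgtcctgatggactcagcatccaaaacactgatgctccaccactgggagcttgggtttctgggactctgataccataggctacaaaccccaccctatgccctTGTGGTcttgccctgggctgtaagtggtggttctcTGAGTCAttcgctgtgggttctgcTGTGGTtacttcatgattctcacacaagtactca
Prf1, chr10:61297586-61297835 (plus strand): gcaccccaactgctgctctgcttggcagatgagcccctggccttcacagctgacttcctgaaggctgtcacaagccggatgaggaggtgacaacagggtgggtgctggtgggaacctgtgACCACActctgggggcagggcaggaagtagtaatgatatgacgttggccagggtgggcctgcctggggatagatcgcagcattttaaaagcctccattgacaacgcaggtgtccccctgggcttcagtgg
The motifs searched on both strands were TGTGGT (RUNX factors), GGTGTG (T-box factors), TGANTCA (AP-1), TGACGTCA (the cAMP response element), GAAA, any 2 bases and GAAA again (the interferon-stimulated response element) and TATAAA (the TATA box), and their matches do not overlap in these runs. The RUNX motif was present in each of the 3: it starts 50 bases before the start of Gzma, 93 and 34 bases before that of Gzmb, and 130 bases before that of Prf1. It was also present 83 bases before the start of Nkg7 and 58 bases before 1 of the 2 listed starts of Lck, so 5 of the 10 windows listed for 9 members held it, against 4614 of all 32851 promoter windows of that length. Ccl5 has no entry in the promoter table. The Gzma window alone among the 10 held the interferon-stimulated element, 97 bases before the start; 2.98% of all windows hold it. The Gzmb window alone held the AP-1 motif, 58 bases before the start (6.75% of all windows). The T-box motif was in the windows of Nkg7 and Cd3d (16.3% of all windows). The exact letters TGACGTCA (1.55%) and TATAAA (12.4%) were in none of the 10. Variants of these letters were not searched, such as the tatataa in the Gzma run. The RefSeq start of Gzmb used here lies upstream of its GENCODE start, which is 56262260 on the minus strand. The Nkg7 window instead ends at 43437137, past the GENCODE start at 43437073, and its T-box match lies inside the GENCODE gene. A match describes these letters and not a bound factor.

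All 10 members had counts in every library, at low levels. Per kilobase of exon, the level of Ccl5, a chemokine of activated T cells, was 6.06 ± 1.85 CPM, that of Gzma was 3.91 ± 1.71, of Lck 2.76 ± 0.605, of Nkg7 1.95 ± 1.15, of Cd3g 1.94 ± 0.447, of Gzmb 1.78 ± 0.645 and of Cd3d 1.62 ± 0.164 (mean ± SD over all 6 libraries). Cd8a (0.589 ± 0.188), Prf1 (0.479 ± 0.159) and Cd3e (0.429 ± 0.140) were the 3 members with the lowest levels per kilobase. From Nkg7 to Cd3d in this order, neighbouring members differed by less than the larger of their SDs, and so did Cd8a, Prf1 and Cd3e among themselves, Gzma and Lck, and Lck and Nkg7. The step between Cd3d and Cd8a, 1.62 against 0.589 CPM per kilobase, was larger than either SD. Members of the same receptor complex were thus measured at unequal levels per annotated length, Cd3g being at 1.94 and Cd3e at 0.429 CPM per kilobase. The lengths are unions of all annotated exons, 3269 bases for Cd3g and 4080 for Cd3e. They need not be the lengths of the RNAs present.

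**Figure D1:**
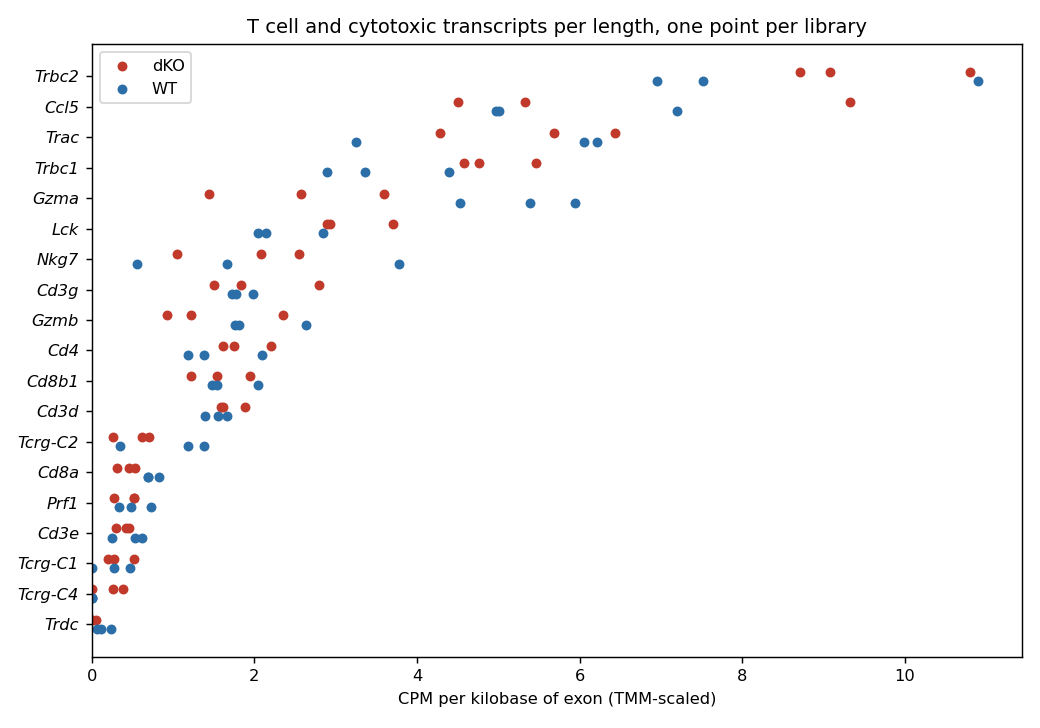
Level per kilobase of exon (horizontal axis, TMM-scaled CPM per kilobase) of the 10 members, the T cell receptor constant segments, Cd4 and Cd8b1; each point is 1 library, red for dKO and blue for WT. Trbc2 and Ccl5 stand highest (means of 8.99 and 6.06 over the 6 libraries) and Tcrg-C1, Tcrg-C4 and Trdc lowest, with Trdc at 0.0786.

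The constant segments of the receptor chains, which T cells join to rearranged variable segments, had counts in the range of the members. Trbc2, a beta constant segment, had 33, 31 and 93 counts in libraries labelled dKO and 24, 24 and 19 in those labelled WT. Trbc1, its near-identical copy, had 18, 17 and 55 counts against 10, 8 and 13, and its CPM were higher in all 3 libraries labelled dKO, but the split between the pair is uncertain because they can share reads. Trac, the alpha constant segment, had 21, 25 and 82 counts in libraries labelled dKO, against 14, 18 and 23 in those labelled WT. None passed the test: the log2 fold change (dKO over WT) was 0.16 ± 0.22 (SE) for Trbc2, 0.46 ± 0.31 for Trbc1 and 0.13 ± 0.25 for Trac (edgeR adjusted p = 0.837, 0.595 and 0.889). The gamma and delta segments were near their detection limit. Trdc, the delta constant segment, had 0, 0 and 3 counts in libraries labelled dKO and 2, 3 and 1 in those labelled WT, and the gamma constant segments Tcrg-C1 and Tcrg-C2 had at most 10 counts in any library. Tcrg-C4 had 2, 0 and 4 counts in libraries labelled dKO and none in any labelled WT.

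Reads also fell on many variable segments. Of 35 beta variable segments in the table, 19 had a count, 179 counts in all over the 6 libraries, and of 128 alpha variable segments 37 had a count, 71 in all. The 7 gamma variable segments held 22 counts and the 6 delta variable segments 4 counts. Summed over all 266 receptor segments, libraries labelled dKO held 122, 112 and 414 counts and libraries labelled WT 104, 84 and 101. As a share of counts outside the ribosomal RNA row this was 0.0237% ± 0.00223 against 0.0227% ± 0.00173 (SD, n = 3 each), with overlapping values.

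The 5 T cell members together were at similar shares in both groups. Their summed counts were 104, 107 and 328 in libraries labelled dKO, which is 0.0181%, 0.0236% and 0.0200% of counts outside the ribosomal RNA row, against 96, 61 and 82 counts or 0.0192%, 0.0176% and 0.0186% in libraries labelled WT. The group means were 0.0206% ± 0.00281 in dKO and 0.0185% ± 0.000805 in WT (SD, n = 3 each), a ratio of 1.11. The groups overlap, and the difference of means was smaller than the SD of the dKO libraries. For the 5 cytotoxic members the counts were 90, 45 and 203 in libraries labelled dKO and 70, 70 and 54 in those labelled WT. Their shares were 0.0127% ± 0.00286 in dKO and 0.0155% ± 0.00419 in WT (SD, n = 3 each), a ratio of 0.816 that also lies within the spread. Gzma made up 19.2% of the 338 cytotoxic counts in dKO and 32.0% of the 194 in WT, and Ccl5 42.6% in dKO and 32.5% in WT. All 10 members summed to 0.0332% ± 0.000672 in dKO and 0.0340% ± 0.00357 in WT. No p is given for these sums, because the members were chosen with earlier results of these data known. In libraries made from many cells, fewer cells of a type and less RNA per cell cannot be told apart.

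**Figure D2:**
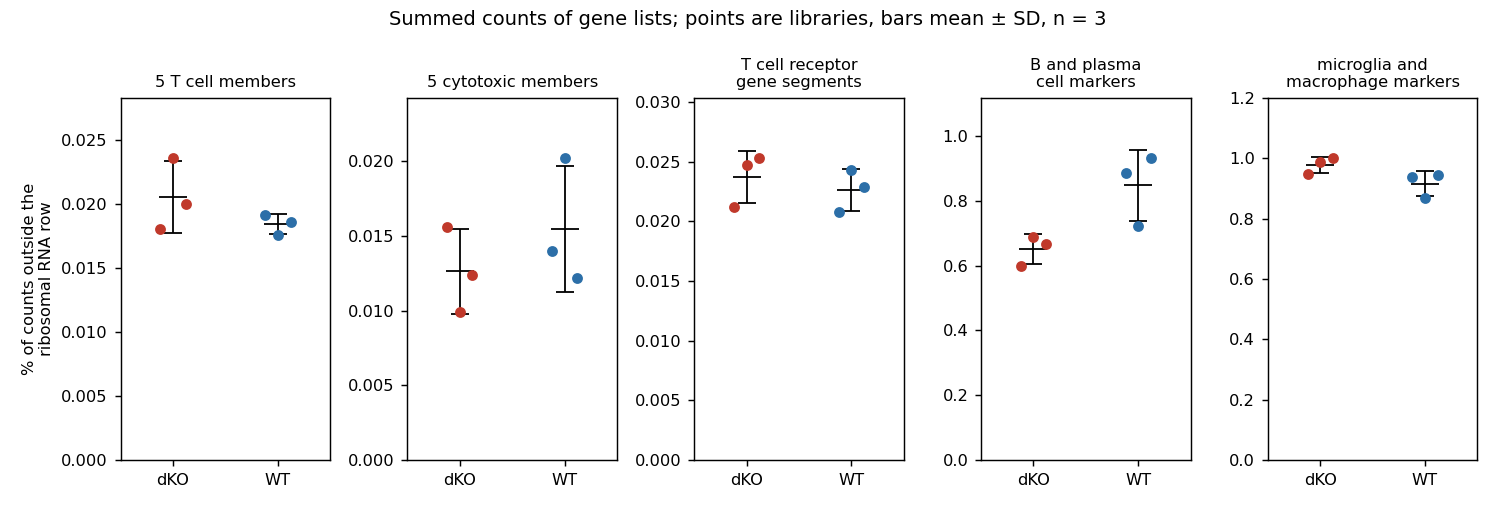
Summed counts of 5 gene lists as a percent of counts without the ribosomal RNA row (vertical axes, each from 0), 1 point per library with group mean and SD (n = 3), dKO left of WT. The T cell, cytotoxic and receptor segment sums overlap between groups, the B cell and plasma cell sum is lower in all 3 libraries labelled dKO (0.651% against 0.847% in WT), and the microglia and macrophage sum is higher (0.981% against 0.916%).

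Of the 10 members, 6 passed the low-count filter and were tested: Cd3d, Cd3g, Lck, Gzma, Gzmb and Ccl5. Gzma alone was called lower in dKO and none was called higher, by the quasi-likelihood test of edgeR with p adjusted over all genes and a threshold of 0.05. At an unadjusted p under 0.05 the same fit also held 1 member lower and 0 higher; DESeq2 called 0 and limma-voom 1 lower. Over all 8444 genes tested, 1.18% were called lower, 0.734% higher and 1.92% in either direction. The median log2 fold change was 0.093 over the 6 tested members and -0.00067 over all genes tested. The other 4 members, Cd3e, Cd8a, Nkg7 and Prf1, were below the filter, and their fitted values come from a fit without it, in which 0.825% of 21821 genes were called and none of the 10 members was.

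Gzma encodes granzyme A, a trypsin-like protease of cytotoxic granules (ENSMUSG00000023132, chromosome 13, 113093825 to 113100981, minus strand, GRCm38). It had 19, 6 and 40 counts in libraries labelled dKO and 25, 19 and 18 in those labelled WT. On the CPM scale this is 3.62, 1.44 and 2.59 in dKO, against 5.42, 5.97 and 4.55 in WT. The groups did not overlap, as for 8.31% of genes tested when counted in this direction, and dKO replicate 2 was lowest. The mean fell to 2.55 ± 1.09 CPM in libraries labelled dKO, against 5.32 ± 0.715 in those labelled WT (SD, n = 3 each). This was a log2 fold change of -1.01 ± 0.28 (SE; 95% interval -1.57 to -0.44; edgeR adjusted p = 0.0369). The call was lost with DESeq2 (adjusted p = 0.401), without the low-count filter (0.0555), with the replicate number as a block (0.0649), when dKO replicate 3 was thinned to the depth of the others (0.189), and on leaving out dKO replicate 2 (0.0999), dKO replicate 3 (0.168), WT replicate 1 (0.177) or WT replicate 2 (0.139). The value kept its sign in all 16 alternatives (-1.18 to -0.82). These reuse the same counts, and with groups that do not overlap, leaving out 1 library could hardly turn the sign. The kept sign is therefore no separate support.

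The second granzyme did not pass. Gzmb (granzyme B, chromosome 14, 56258838 to 56262260, minus strand), which cleaves after aspartate and activates caspases, had 7, 14 and 27 counts in libraries labelled dKO and 12, 12 and 10 in those labelled WT, or 1.33, 3.37 and 1.75 CPM against 2.60, 3.77 and 2.53 CPM. The groups overlap, and dKO replicate 2, the lowest library for Gzma, was the highest dKO library for Gzmb. The log2 fold change was -0.56 ± 0.37 (95% interval -1.30 to 0.17; edgeR adjusted p = 0.573). Gzmb lies in a cluster of related granzyme genes whose reads can be shared. Its neighbours Gzmc, Gzmd, Gzmf and Gzmg had at most 5 counts in any library.

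Perforin and the granule membrane protein Nkg7 were under the filter. Prf1 (chromosome 10, 61297833 to 61304680, plus strand) had 7, 3 and 21 counts in libraries labelled dKO, against 4, 6 and 5 in those labelled WT. The summed counts, dKO over WT after scaling, gave 0.977 (0.512 to 1.95 as the exact 95% binomial bounds, which cover counting error alone). Nkg7 (chromosome 7, 43437073 to 43438249, plus strand) had 10, 4 and 36 counts against 7, 11 and 2, and WT replicates 2 and 3 held both the highest and the lowest level of the 6 libraries (3.46 and 0.506 CPM). Its fitted log2 fold change was 0.24 ± 0.41 (95% interval -0.56 to 1.04), although its mean was 1.73 ± 0.700 CPM in dKO and 1.83 ± 1.5 CPM in WT (SD, n = 3 each), so the direction differs between the fit and the means. Without WT replicate 3 the fitted value was -0.24. The Nkg7 interval, unlike the Prf1 bounds, also covers the spread between libraries, and both are wide at these low counts.

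Ccl5, whose protein attracts T cells, spread widely within the dKO group (chromosome 11, 83525778 to 83530518, minus strand). Its 47, 18 and 79 counts in libraries labelled dKO were 8.95, 4.33 and 5.12 CPM, and its 22, 22 and 19 counts in those labelled WT were 4.77, 6.91 and 4.81 CPM. Replicate 1 of dKO was the highest library and replicate 2 the lowest, so that the WT values lie inside the dKO range. The log2 fold change was 0.13 ± 0.24 (95% interval -0.35 to 0.61; edgeR adjusted p = 0.886), and without dKO replicate 1 it was -0.12.

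**Figure D3:**
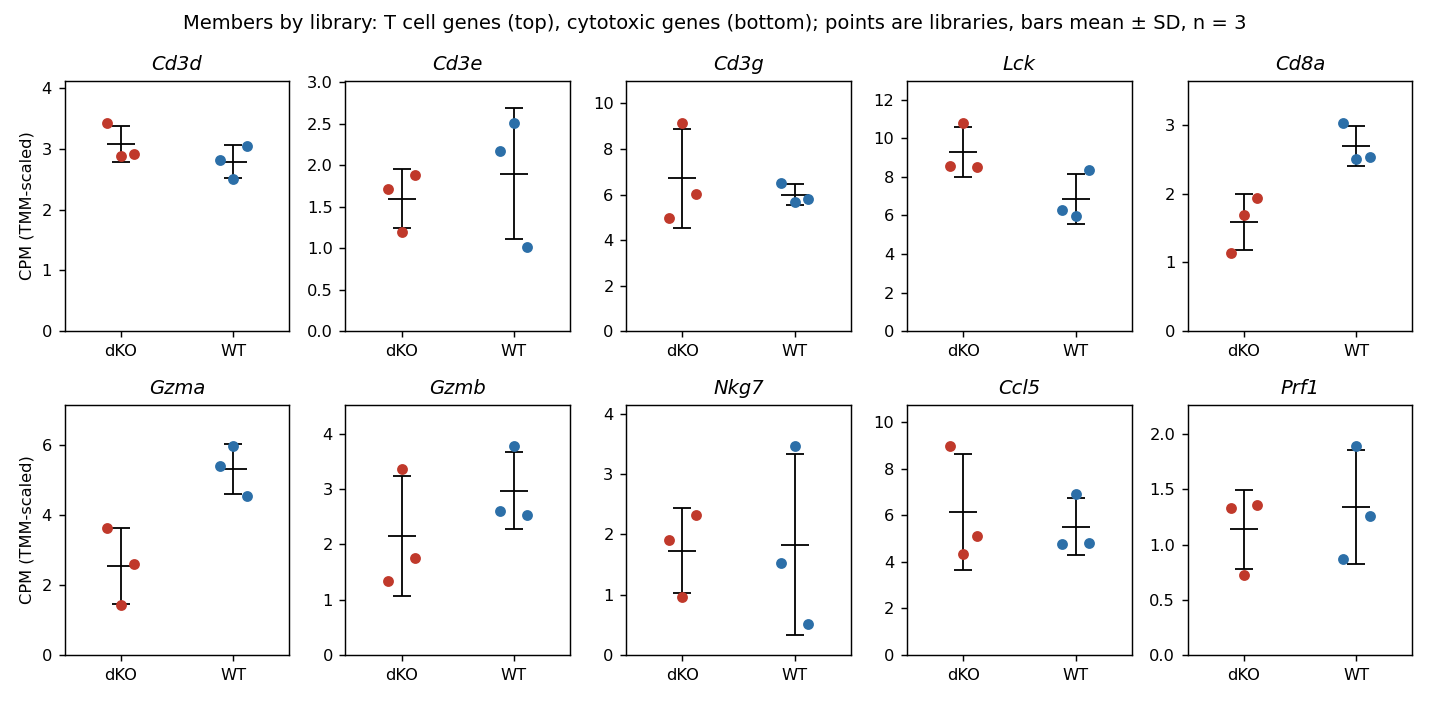
CPM (vertical axes, each from 0) of the 10 members in each library, dKO left of WT, with group mean and SD (n = 3). Gzma and Cd8a are lower in all 3 libraries labelled dKO, Lck is higher in all 3 by a margin of 8.49 against 8.35 CPM at the nearest points, and the other 7 overlap.

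The CD3 chains were measured without a difference that passed the test. Cd3g, Cd3d and Cd3e lie together on chromosome 9 within 40056 bases, Cd3g (44969572 to 44980431, minus strand) and Cd3d (44981786 to 44987339, plus strand) being head to head with 1354 bases between them, and Cd3e at 44998740 to 45009627 on the minus strand. Cd3g had 26, 38 and 93 counts in libraries labelled dKO, or 4.95, 9.15 and 6.02 CPM, and 30, 18 and 23 counts in those labelled WT, or 6.50, 5.66 and 5.82 CPM. The WT values lie inside the dKO range, and dKO replicate 2 was highest. The log2 fold change was 0.078 ± 0.22 (95% interval -0.37 to 0.52; edgeR adjusted p = 0.930), and without dKO replicate 2 it was -0.083. Cd3d was at 3.43, 2.89 and 2.92 CPM in libraries labelled dKO and 2.82, 2.51 and 3.04 CPM in those labelled WT, and the groups overlap. Its log2 fold change was 0.11 ± 0.32 (95% interval -0.52 to 0.74; edgeR adjusted p = 0.933). Cd3e, under the filter, had 9, 5 and 29 counts in libraries labelled dKO and 10, 8 and 4 in those labelled WT, with a fitted log2 fold change of -0.095 ± 0.41 (95% interval -0.90 to 0.72) that was 0.060 without WT replicate 2.

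Lck (chromosome 4, 129548344 to 129573641, minus strand) was the T cell member with the most counts. It had 45, 45 and 131 counts in libraries labelled dKO and 29, 19 and 33 in those labelled WT, or 8.57, 10.8 and 8.49 CPM against 6.29, 5.97 and 8.35 CPM. All 3 dKO values were above all 3 WT values, as for 731 of 8444 genes tested when counted in this direction. In either direction the share was 17.0%. The log2 fold change was 0.38 ± 0.19 (95% interval -0.0085 to 0.77; edgeR adjusted p = 0.414), so Lck was not called. Leaving out any 1 library gave 0.30 to 0.54.

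Cd8a, the alpha chain of the CD8 co-receptor, had the other pattern (chromosome 6, 71373427 to 71379173, plus strand). It had 6, 7 and 30 counts in libraries labelled dKO, or 1.14, 1.69 and 1.94 CPM, and 14, 8 and 10 counts in those labelled WT, or 3.03, 2.51 and 2.53 CPM. The groups did not overlap, as for 6.34% of 1781 untested genes of similar level when counted in this direction. The means were 1.59 ± 0.409 CPM in dKO and 2.69 ± 0.296 CPM in WT (SD, n = 3 each). In the fit without the filter the log2 fold change was -0.63 ± 0.37 (95% interval -1.36 to 0.098; edgeR adjusted p = 0.747), so the difference did not pass. Summed and scaled, the counts alone gave 0.635 for dKO over WT (exact 95% binomial bounds 0.393 and 1.04).

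**Figure D4:**
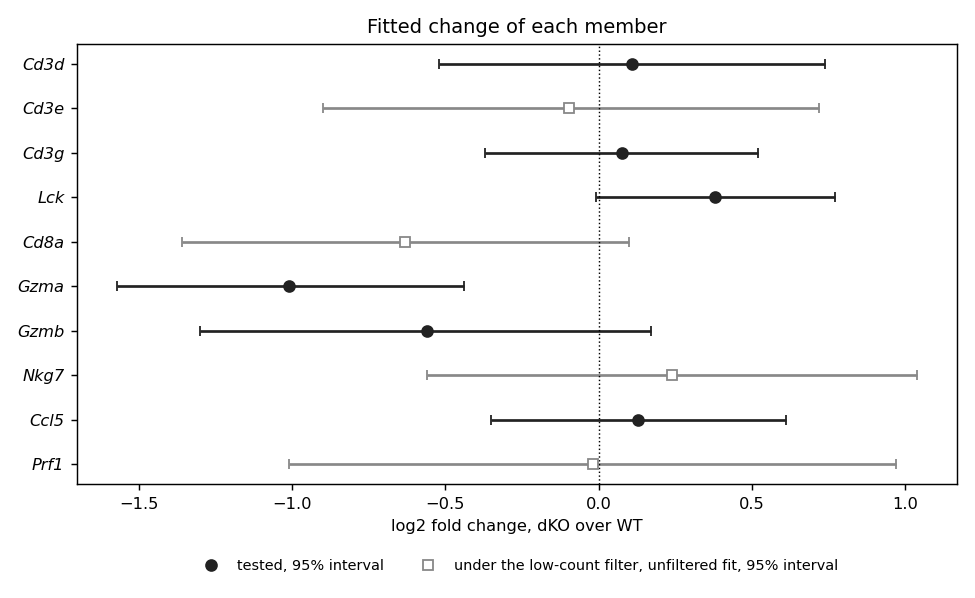
Fitted log2 fold change, dKO over WT (horizontal axis), with 95% interval for each member; filled circles are the 6 members tested and open squares the 4 under the low-count filter, from the fit without it. The interval of Gzma (-1.57 to -0.44) lies below 0, and the intervals of the other 9 members include 0.

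Ratios of counts within a library do not depend on the scaling. Gzma stood at 18.3, 5.61 and 12.2 counts per 100 counts of the 5 T cell members in libraries labelled dKO, against 26.0, 31.1 and 22.0 in those labelled WT. The means were 12 ± 6.33 in dKO and 26.4 ± 4.61 in WT (SD, n = 3 each), and the groups did not overlap. The same ratio overlapped between groups for Gzmb (9.35 ± 3.32 in dKO and 14.8 ± 4.23 in WT), for Prf1 (5.31 ± 2.18 and 6.70 ± 2.88), for Nkg7 (8.11 ± 3.85 and 9.25 ± 7.98) and for Ccl5 (28.7 ± 14.7 and 27.4 ± 7.52). Set against single genes, Gzma overlapped too: per 100 Cd8a counts it stood at 317, 85.7 and 133 in libraries labelled dKO and at 179, 238 and 180 in those labelled WT, and per 100 Gzmb counts at 271, 42.9 and 148 in dKO and at 208, 158 and 180 in WT. These ratios were chosen after the values were seen and carry no test.

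The co-receptors were also set against each other. Cd4, the co-receptor of helper T cells, had 34, 37 and 109 counts in libraries labelled dKO and 22, 27 and 22 in those labelled WT (log2 fold change 0.26 ± 0.22, SE; edgeR adjusted p = 0.690). Per 100 Cd4 counts there were 17.6, 18.9 and 27.5 Cd8a counts in libraries labelled dKO, against 63.6, 29.6 and 45.5 in those labelled WT. Per 100 counts of the 3 CD3 genes, Cd8a stood at 11.3, 12.7 and 18.0 in dKO and at 26.4, 23.5 and 25.6 in WT. Neither ratio overlapped between groups. Both reuse the Cd8a counts, whose CPM did not overlap by themselves, so they are not separate results, and they carry no test. Cd8b1 encodes the beta chain that pairs with the product of Cd8a. Per 100 Cd4 counts it stood at 35.3, 32.4 and 25.7 in dKO and at 63.6, 25.9 and 40.9 in WT. The mean of this ratio was also lower in dKO (31.1 ± 4.93 against 43.5 ± 19.0, SD), but the groups overlapped. The log2 fold change of Cd8b1 was -0.26 ± 0.37 (SE; edgeR adjusted p = 0.835), and 0.0058 without dKO replicate 3. Whether Cd8b1 and Cd8a differed from each other in their change was not tested.

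**Figure D5:**
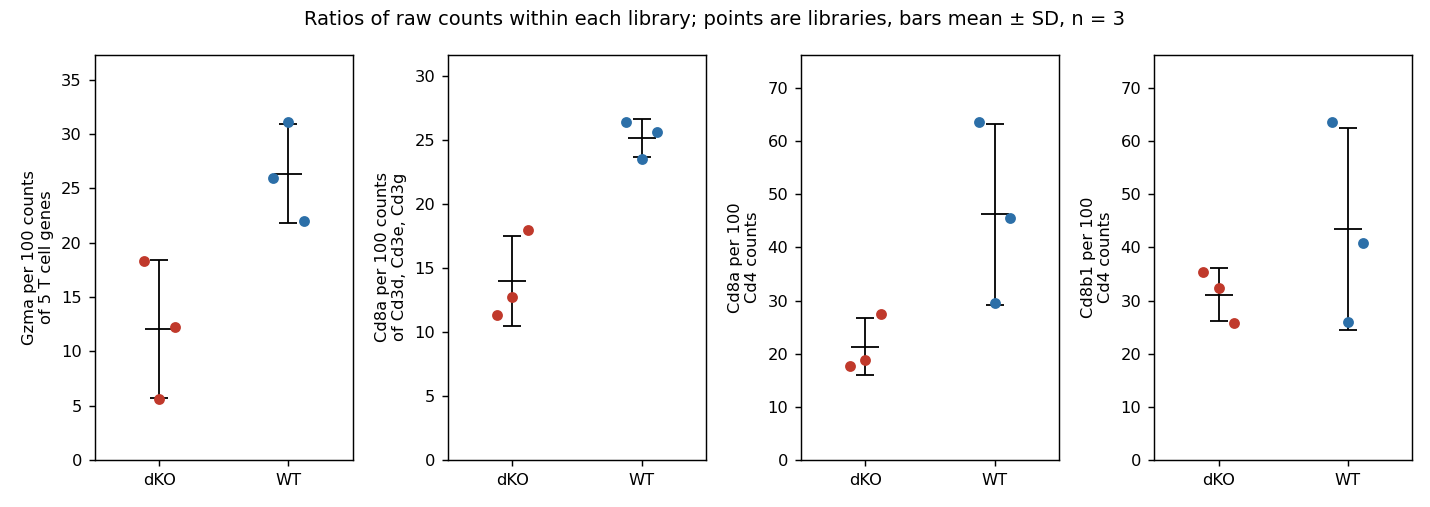
Ratios of raw counts within each library (vertical axes, from 0), dKO left of WT, with group mean and SD (n = 3). Gzma per 100 counts of the T cell members and Cd8a against the CD3 genes or Cd4 are lower in every library labelled dKO, while Cd8b1 per 100 Cd4 counts overlaps, as do the ratios of Gzma to Cd8a and to Gzmb, which are not plotted.

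The wider T cell receptor pathway was present as well, with no member called by edgeR, DESeq2 or limma-voom, and none at an unadjusted p under 0.05 in those filtered fits. Of 25 listed genes of the receptor complex and its signalling, 20 were tested, 17 of them had a positive and 3 a negative log2 fold change, and the median was 0.21. The smallest p belonged to Ctla4, an inhibitory receptor of activated T cells, at 6.66, 2.89 and 4.47 CPM in libraries labelled dKO and 3.03, 3.46 and 3.04 CPM in those labelled WT (log2 fold change 0.57 ± 0.29, SE; edgeR adjusted p = 0.400). Ptprc, the phosphatase CD45 of all leukocytes, was at 41.2 ± 0.924 CPM in dKO and 47.5 ± 4.39 CPM in WT (SD, n = 3 each; adjusted p = 0.426 by edgeR). Of 16 T cell transcription factors 8 were tested and 0 called (edgeR; 1 lower at an unadjusted p under 0.05; 0 by DESeq2 and limma-voom), with a median of -0.17; Ikzf1, a regulator of lymphocyte development, had -0.38 ± 0.18 and Tcf7, a factor of naive and memory T cells, -0.43 ± 0.35 (SE; edgeR adjusted p = 0.341 and 0.692).

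Other genes of killing, migration and tissue residence were not called by edgeR, DESeq2 or limma-voom. Of 22 further granule and killing genes 10 were tested, 5 positive and 5 negative, with a median log2 fold change of 0.0061 and 0 at an unadjusted p under 0.05 in the filtered fits. The 2 with the smallest p act in granule release and trafficking: Unc13d, which primes granules for fusion, had 0.61 ± 0.32 and Lyst, a regulator of lysosome size, -0.23 ± 0.13 (SE; edgeR adjusted p = 0.428 and 0.463). Among 20 chemokine and receptor genes 11 were tested, with a median of 0.11 and 1 lower at an unadjusted p under 0.05. Ccr7, the lymph node homing receptor, was at 2.09, 0.722 and 1.43 CPM in libraries labelled dKO and 3.03, 3.14 and 2.78 CPM in those labelled WT without passing (log2 fold change -1.03 ± 0.39, SE; edgeR adjusted p = 0.200), and Ccr1 had 0.56 ± 0.32 (0.478). All 12 listed genes of tissue-resident memory T cells were tested, 9 of them negative, with a median of -0.11; at an unadjusted p under 0.05 the edgeR fit held 3 lower and 1 higher. The 2 with the smallest p were Itgal, an integrin of lymphocyte adhesion (-0.49 ± 0.22, SE; edgeR adjusted p = 0.324), and Cd69, a retention and activation marker, at 3.62, 3.61 and 4.02 CPM in dKO against 5.42, 5.34 and 5.82 CPM in WT (-0.52 ± 0.25; 0.353).

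Markers of other immune cells were read beside the members. The defining NK cell genes were sparse: Ncr1 had 4, 2 and 5 counts in libraries labelled dKO and 5, 1 and 2 in those labelled WT. Klrd1 had 2, 2 and 7 against 4, 3 and 4, Klrb1c had 4, 1 and 6 against 1, 3 and 0, and Eomes had 3, 5 and 14 against 1, 3 and 5. Scaled to CPM, Klrd1 was lower in dKO without overlap (0.381, 0.481 and 0.453 against 0.867, 0.943 and 1.01), while Ncr1, Klrb1c and Eomes overlapped. Klrd1 was under the low-count filter and was not called in the fit without it (edgeR adjusted p = 0.778). Of 17 NK receptor genes in the table only 2 were tested, and Fcgr3, an antibody receptor that macrophages also carry, was higher (26.7, 26.5 and 26.4 CPM in dKO against 18.9, 18.5 and 21.3 CPM in WT; log2 fold change 0.44 ± 0.12, SE; edgeR adjusted p = 0.0348). Its call was lost with DESeq2 (0.438), with dKO replicate 3 thinned (0.0780) and without any 1 library except WT replicate 3 (0.0515 to 0.235). The 15 NK genes without Fcgr3 and Il2rb summed to 29, 29 and 128 counts in dKO and 47, 30 and 25 in WT, as shares 0.00503%, 0.00640% and 0.00782% against 0.00941%, 0.00867% and 0.00567%, with overlap.

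The B cell and plasma cell list moved with the labels. Of its 19 markers 8 were tested, 3 were lower and none higher, and all 8 had a negative log2 fold change. Its summed share was 0.599% to 0.689% in libraries labelled dKO and 0.723% to 0.931% in those labelled WT. The antibody constant genes Ighg2b (-0.89 ± 0.11, SE; edgeR adjusted p = 4.02e-09), Igha (-0.64 ± 0.11; 4.03e-05) and Igkc (-0.54 ± 0.10; 0.000275) were the 3 called, Igha not by DESeq2 (0.550). Ms4a1, a defining B cell marker, was present at low counts, with 4 to 23 in libraries labelled dKO and 1 in each labelled WT. Microglia and macrophage markers, 19 of 19 tested, summed to 0.949% to 1.00% in dKO and 0.867% to 0.945% in WT; Lyz2, lysozyme, was the 1 called, higher in dKO (0.50 ± 0.097; edgeR adjusted p = 0.000391). The plasmacytoid dendritic cell and mast cell list, which bears on the granzymes because these cells can make them, summed to 0.0514% to 0.0554% in dKO and 0.0555% to 0.0659% in WT, with 0 of 4 tested members called (edgeR; 2 lower at an unadjusted p under 0.05; 0 by DESeq2). In it the mast cell gene Cpa3 was at 0 in all 6 libraries. Siglech, a marker of plasmacytoid dendritic cells and microglia, had 29, 28 and 103 counts in dKO and 35, 12 and 20 in WT. The 103 counts are from replicate 3, the deepest library, and these counts are not scaled to depth. The tested members with the smallest p were Tcf4 (-0.31 ± 0.11; edgeR adjusted p = 0.172) and Bst2 (-0.70 ± 0.29; 0.269). Of the retinal ganglion cell list, Thy1 was at 10.3 ± 1.12 CPM in dKO and 10.6 ± 0.356 in WT, and Isl1 at 4.21 ± 0.933 CPM in dKO and 7.0 ± 0.804 in WT (SD, n = 3 each; edgeR adjusted p = 0.911 and 0.138). Its markers summed to 0.0364% to 0.0395% in dKO and 0.0248% to 0.0309% in WT, with 1 of 5 tested, Nefl, called (1.63 ± 0.28; 3.95e-05). The part of these differences in the values of Gzma and Cd8a was not tested.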

How the data were processed

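The authors deposited raw counts (whole numbers, not normalized) by Ensembl gene, with 1 column for each of 6 libraries. Per the labels' protocols, a stranded kit for total RNA was used. GRCm38, DESeq2 1.22.2 and STAR 2.7.0d are named in the submitters' processing notes; not given in the sources used here are the counter, its strand setting, its annotation and its handling of multiply mapped reads, so antisense and near-identical genes are uncertain. In GENCODE M21 (GRCm38), which holds 55480 of 55573 gene IDs, exons of Cd3e overlap an antisense gene and those of Lck a microRNA, both at 0 counts.

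In edgeR 4.0.16 (R 4.3.3), genes passed filterByExpr (at least 10 counts, 15 in total), libraries were scaled by TMM, and glmQLFTest compared the groups (two-sided, no covariate), with Benjamini-Hochberg adjustment over all genes and calls under 0.05. The SE of a log2 fold change is its size over the root of F, and 95% intervals use the fit's degrees of freedom. CPM divide counts by the TMM-scaled library size, the ribosomal RNA row included; exon lengths are unions of GENCODE exons. Counting intervals and low counts cover counting error only. Alternatives were other scalings and filters, DESeq2 1.42.0, limma-voom (limma 3.58.1), the replicate number as a block, leaving out each library or the ribosomal RNA row, thinning dKO replicate 3, and adjusted p under 0.1. The fitting steps were tested on simulated data. The members, lists and tests were chosen with earlier results of these data known. Named genes are all members, up to 4 called genes of each list (2 of smallest p where none was called), and the T cell receptor constant segments; Cd4, Cd8b1 and genes given by counts alone were added after their values were seen. Thy1 and Isl1 of the retinal ganglion cell list are named as well, though neither was called. Müller glia and endothelial markers, and the most abundant genes of the other lists apart from those named, were measured (Müller glia 1 of 12 called, endothelial 0 of 3) and are not described further. Promoter sequences are RefSeq's (GRCm38.p6). Figures were drawn with matplotlib 3.10.9. Some items are not reported here.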

Additional observations from a re-analysis of the deposited data

How the results depend on the processing

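Over all genes, 62 were higher and 100 lower in libraries labelled dKO; DESeq2 gave 26 and 26, an adjusted p under 0.1 gave 108 higher, and leaving out 1 library gave 29 to 71 higher and 61 to 116 lower (29 and 61 without WT replicate 1, 50 and 66 without dKO replicate 3). The count of members called lower, 1, became 0 without the low-count filter, with DESeq2, with the replicate block and with dKO replicate 3 thinned, and ranged between 0 and 1 when 1 library was left out; the cause was not tested. By edgeR and every other setting run, 0 members were called higher (at an unadjusted p under 0.05, 0 in edgeR with the filter, 1, Lck, without it, and 0 in DESeq2 and limma-voom). Log2 fold changes turned sign on leaving out 1 library, with ranges of -0.12 to 0.36 for Ccl5, -0.43 to 0.060 for Cd3e, -0.083 to 0.18 for Cd3g, -0.24 to 0.36 for Nkg7, -0.17 to 0.32 for Trac and -0.38 to 0.0058 for Cd8b1, none of which passed in any setting run. The ratios of summed members ranged over all settings between 1.03 and 1.18 for the T cell genes, 0.720 and 0.964 for the cytotoxic genes and 0.920 and 1.04 for all 10.

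The labels give both groups the replicate numbers 1 to 3 and no pairing. With the replicate block, 58 genes were higher and 100 lower, and Gzma had an adjusted p of 0.0649. Deviations of same-numbered libraries correlated at 0.0194, 0.0132 and 0.0204 over 6742 genes, and those of differently numbered libraries at -0.0244 to 0.00662. Each library correlated best with its own number, but values of both kinds are of similar small size. They do not settle whether the libraries were paired. Members had 15 to 221 counts per group. The fitted intervals given beside the values reflect both these low counts and the spread between libraries.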
